A study of Zea mays with 24 samples.

Results

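Described here are 20 maize (Zea mays) genes that stood high in the adaxial epidermis of the forming ligule but not, by the same margin, in pieces cut through the whole ligule band. They were chosen on measured levels in FPKM (fragments per kilobase of transcript, scaled to the mapped fragments of the library, a level per length). The lowest of the 3 ligule libraries of the adaxial L1 (the epidermal layer on the upper face of the leaf) had to reach 5 FPKM and 2 times the highest of the blade and sheath libraries of that layer. The mean of the 3 ligule libraries of all cell layers had to stay below 1.5 times the larger of the blade and sheath means of all layers. Of 109715 identifiers, 10498 reached the floor of 5 FPKM, 138 of these also the fold, and 22 of these also stayed below the ceiling. PIN1a and RR6 met the rule and were set aside, which left 20 genes. The other 116 genes with the epidermal difference had an all-layers ratio of at least 1.5. Because the 18 P7 libraries chose the genes, the P7 levels below are descriptions without tests, and only the 6 P6 libraries could be used for a test.

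The ligule is a fringe of epidermal origin at the boundary of blade and sheath in grass leaves, and it grows out from the preligule band, where the first additional cell divisions take place in the adaxial epidermis. The gene lg1, which encodes an SBP-box transcription factor, is needed for this outgrowth, and auxin transport and cytokinin signalling genes are known to act in outgrowing organs. Expansins loosen plant cell walls as cells enlarge. NAC and AP2/ERF proteins are large plant families of transcription factors, and some NAC genes mark organ boundaries.

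The study measured polyadenylated RNA of laser-microdissected leaf primordia of the inbred line B73, amplified as antisense RNA with the TargetAmp kit, in 24 libraries and 8 groups of 3. Wild-type P7 primordia gave ligule, blade and sheath pieces of the adaxial L1 (replicates 1 to 3, written ligule L1, blade L1 and sheath L1 below) and the same regions through all cell layers (replicates 3 to 5). Ligule pieces were 100 µm high on the preligule band, with blade and sheath pieces 50 µm to either side. P6 primordia gave tissue through all cell layers, 400 to 900 µm from the leaf base, of plants labelled lg1-R and of their wild-type siblings (replicates 1 to 3). Below, all layers without a stage refers to P7. Days of 15 h at 25 °C and nights of 9 h at 20 °C were used for all groups, and each library pooled 5 to 6 plants, so it shows no single plant. The labels give no account of the lesion in the lg1-R allele and do not say whether a replicate number marks shared plants.

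Total counts per library were 3818649 to 32553958 in the adaxial L1, 9970945 to 52731783 in all layers of P7 and 15020913 to 40957592 in P6. The mean correlation of log2(FPKM + 1) with the other libraries of the group was 0.910 to 0.946 in the adaxial L1, 0.917 to 0.963 in all layers, lowest in sheath replicate 4, and 0.959 to 0.970 in P6. The sum of 6 epidermis markers (the HD-ZIP IV genes ocl1, ocl3, ocl4 and ocl5 and the wax genes gl1 and gl8b) was 332 to 383 FPKM in ligule L1, 553 to 764 in blade L1 and 489 to 696 in sheath L1. It was 157 to 241 in the all-layers libraries of P7 and 246 to 287 in those of P6. The 4 ocl genes had higher means in the L1 than in all layers in each region, gl8b averaged between 15.0 and 21.0 FPKM in all P7 groups, and gl1 was listed at 0 in all L1 libraries. The sum was thus lower in every ligule L1 library than in any blade L1 or sheath L1 library, opposite in direction to the 20 genes, and its part in their levels was not tested. The phloem sucrose transporter gene sut1, the only inner-tissue marker found by name, was listed at 0 in all L1 libraries. In all layers it had 2.03 FPKM in ligule replicate 4 and 0 to 0.353 in the other P7 libraries of all layers. The level of lg1 was 12.5, 6.83 and 6.77 FPKM in ligule L1, against 0.190, 0.0743 and 0.319 in blade L1 and 0.329, 0.416 and 0.122 in sheath L1. In all layers lg1 had 1.38, 11.7 and 5.17 FPKM in the ligule, against at most 0.119 in blade and 0.211 in sheath. The ligule libraries used for the ceiling thus differed widely in lg1, with replicate 3 the lowest. The part of this spread in the choice of genes was not tested.

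In ligule L1 the 20 genes had mean levels from 6.89 to 721 FPKM, with a median of 19.4. Of these, 14 matched a locus in the reference table, 5 had a name there, and 6 had no entry. The lowest ligule L1 library stood 2.04 to 12.8 times above the highest blade or sheath L1 library (median 2.60), and the ratio of the ligule L1 mean to the larger of the other means was 2.49 to 59.3 (median 4.42). Within ligule L1 the highest library stood 1.13 to 3.80 times above the lowest, with a median of 1.57. The highest ligule L1 value fell in replicate 1 for 6 genes, in replicate 2 for 8 and in replicate 3 for 6. In these bulk pieces, fewer cells of a type and less RNA per cell cannot be told apart.

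**Figure D1:**
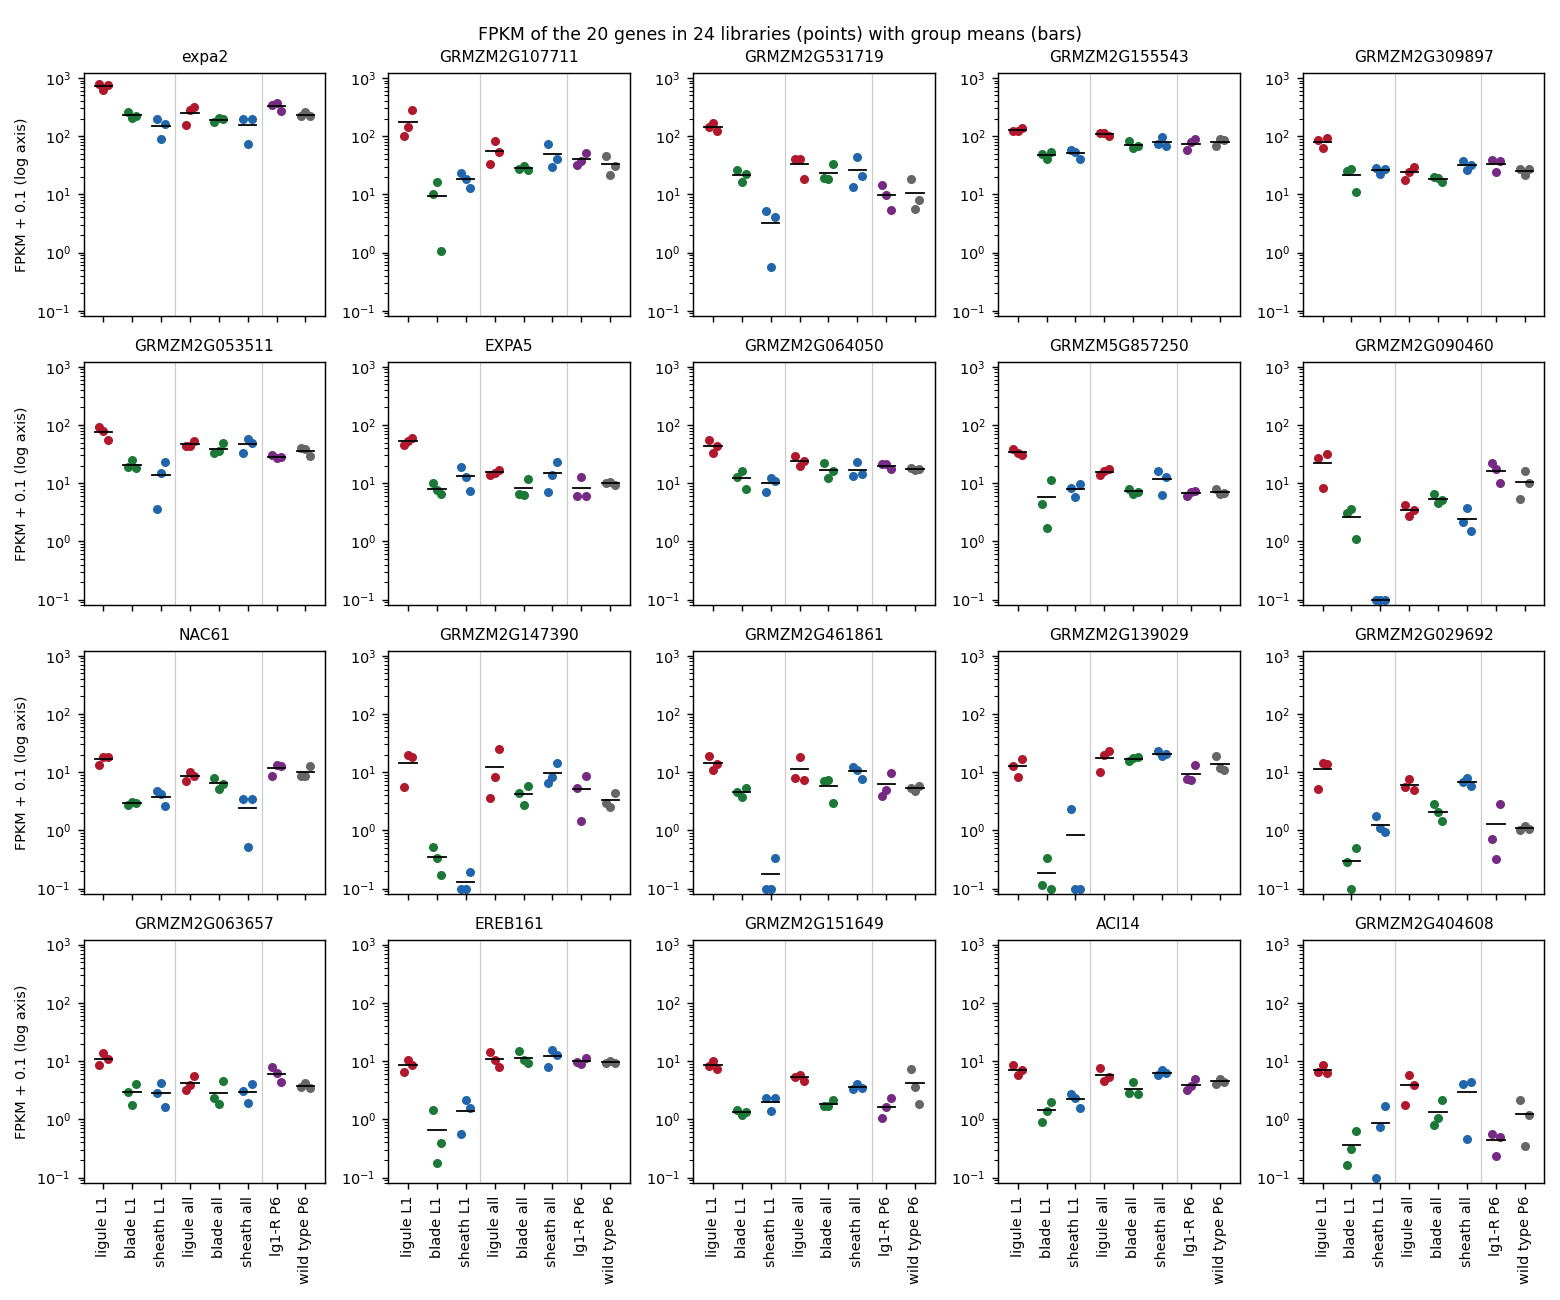
FPKM + 0.1 on a log axis for the 20 genes in the 24 libraries, ordered by their ligule L1 mean. Points are libraries, bars are group means, and grey lines part the adaxial L1, the all-layers P7 and the P6 groups; in all 20 panels the ligule L1 points lie above the blade L1 and sheath L1 points, as the rule requires.

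Both genes named as expansins among the 20 were abundant. The gene expa2 (GRMZM2G105844), which encodes an alpha-expansin, had 791, 628 and 745 FPKM in ligule L1, 258, 205 and 219 in blade L1 and 198, 90.2 and 164 in sheath L1. It had the highest level of the 20 genes in each of the 8 groups, and its ligule L1 libraries held 3780 to 25712 counts. In all layers expa2 stood at 156, 275 and 311 FPKM in the ligule, 175, 202 and 198 in blade and 193, 72.8 and 198 in sheath, and these 3 groups overlapped. Without ligule replicate 3 of all layers, whose value of 156 FPKM was the lowest of its group, expa2 no longer stayed below the ceiling. The second expansin gene, EXPA5 (GRMZM2G361064), had 45.6, 53.3 and 60.6 FPKM in ligule L1, 9.99, 7.46 and 6.56 in blade L1 and 19.1, 12.6 and 7.30 in sheath L1. In all layers it had 13.6, 14.9 and 17.1 FPKM in the ligule, 6.38, 6.29 and 11.9 in blade and 6.96, 14.0 and 23.1 in sheath, where the sheath libraries overlapped with both other groups. The L1 mean of expa2 was 2.92 times the all-layers mean for ligule, 1.19 times for blade and 0.973 times for sheath. For EXPA5 the ligule ratio was 3.499, beside 0.975 for blade and 0.885 for sheath.

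Of 16 identifiers named as expansins, 4 reached 5 FPKM in every ligule L1 library, and the 2 besides expa2 and EXPA5 were expB8 (GRMZM2G013002) and expA4 (GRMZM2G445169). The beta-expansin gene expB8 had means of 285 FPKM in ligule L1, 100.4 in blade L1 and 216 in sheath L1, and the alpha-expansin gene expA4 had 15.9 FPKM in ligule L1, 18.8 in blade L1 and 16.8 in sheath L1. The lowest ligule L1 value was 0.940 times the highest blade or sheath L1 value for expB8 and 0.349 times for expA4. The alpha-expansin gene expa1 (GRMZM2G339122) was listed at 0 in ligule L1 and sheath L1, averaged 0.105 FPKM in blade L1, and averaged 7.86 FPKM in the all-layers ligule, 1.302 in blade and 3.13 in sheath.

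Of the 5 genes with a name among the 20, 2 were named as transcription factors, and the genes without a name could not be sorted this way. NAC61 (GRMZM2G003715), a NAC family gene, had 13.3, 18.4 and 17.97 FPKM in ligule L1, 2.61, 2.92 and 2.86 in blade L1 and 4.57, 4.04 and 2.54 in sheath L1. In all layers it had 7.04, 9.84 and 8.45 FPKM in the ligule, 7.85, 5.09 and 6.09 in blade and 3.30, 0.423 and 3.36 in sheath, so that the ligule and blade overlapped and the sheath lay below both. Without blade replicate 3 of all layers, whose value of 7.85 FPKM was the highest of its group, NAC61 no longer stayed below the ceiling. EREB161 (GRMZM2G021573), an AP2/ERF family gene, differed in its all-layers pattern. It had 6.29, 10.5 and 8.37 FPKM in ligule L1, 1.33, 0.0778 and 0.286 in blade L1 and 0.459, 2.02 and 1.47 in sheath L1, but 14.1, 10.2 and 7.68 in the ligule, 14.8, 10.1 and 8.99 in blade and 7.68, 15.7 and 12.4 in sheath of all layers. The all-layers groups of EREB161 overlapped, and its ligule L1 mean was 0.787 times its all-layers ligule mean, while its blade L1 mean was 0.0497 times its all-layers blade mean.

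Of 25 identifiers named NAC, 2 reached 5 FPKM in every ligule L1 library, and the second, NAC12 (GRMZM2G125777), had means of 19.3 FPKM in ligule L1, 22.2 in blade L1 and 20.2 in sheath L1. Of 34 named EREB, 12 reached that floor, and EREB208 (GRMZM2G160971) was the only other with the epidermal difference, with means of 37.6 FPKM in ligule L1, 2.22 in blade L1 and 5.94 in sheath L1 and an all-layers ratio of 1.93, above the ceiling. Over all 307 identifiers with names of the transcription factor families searched, 79 reached the floor, 8 had the epidermal difference and 2 were among the 20. Of the other lists, 9 of 33 cell wall, 22 of 52 auxin, 9 of 24 cytokinin, 7 of 25 lipid and cuticle and 6 of 6 cell cycle and chromatin identifiers reached the floor. The epidermal difference was found for 2 genes of each of the cell wall, auxin and cytokinin lists and for 0 of the lipid and cuticle and cell cycle and chromatin lists, and besides the expansins none of these was among the 20. PIN1a (GRMZM2G098643), an auxin efflux carrier gene, had means of 28.1 FPKM in ligule L1, 5.01 in blade L1 and 1.78 in sheath L1, and in all layers 33.9 in the ligule, 34.3 in blade and 28.4 in sheath. RR6 (GRMZM2G129954), a cytokinin response regulator gene, had means of 15.6 FPKM in ligule L1, 1.85 in blade L1 and 1.02 in sheath L1, and in all layers 25.2 in the ligule, 15.5 in blade and 17.2 in sheath.

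The largest epidermal ratio belonged to GRMZM2G147390, a gene with no functional name in the table used here. It had 5.45, 19.5 and 18.2 FPKM in ligule L1, 0.426, 0.231 and 0.0707 in blade L1 and 0, 0 and 0.0950 in sheath L1. The sheath L1 value rested on 1 count, against 502 counts in ligule L1, a ratio per library total of 484 with an exact 95% interval of 86.5 to 19160 that covers counting error only. In all layers it had 3.54, 8.06 and 24.8 FPKM in the ligule, 4.22, 2.61 and 5.59 in blade and 6.29, 8.19 and 14.4 in sheath. The blade and sheath thus had few transcripts of this gene in the L1 but not in the whole pieces, and its ligule libraries spread widely in both kinds of tissue. In the annotation of Zm-B73-REFERENCE-NAM-5.0 it lies 3 loci from ACI14 (GRMZM2G128399), also among the 20, and no other 2 of the 14 matched genes lay so close, the next pair being 549 loci apart. ACI14 had 8.43, 5.57 and 6.96 FPKM in ligule L1, 0.812, 1.29 and 1.92 in blade L1 and 2.58, 2.25 and 1.44 in sheath L1. In all layers ACI14 had 7.57, 4.39 and 5.22 FPKM in the ligule, 2.78, 4.30 and 2.63 in blade and 5.60, 6.97 and 6.03 in sheath, and the sheath libraries lay above the blade libraries and inside the ligule range.

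Besides expa2, 3 unnamed genes averaged over 100 FPKM in ligule L1. GRMZM2G531719 had 146, 165 and 124 FPKM in ligule L1, 26.3, 16.1 and 22.1 in blade L1 and 5.04, 0.464 and 4.01 in sheath L1. Here the blade L1 libraries all lay above the sheath L1 libraries, while in all layers the ligule (40.2, 40.5 and 18.2 FPKM), the blade (19.1, 18.4 and 32.6) and the sheath (13.0, 43.5 and 20.2) overlapped. GRMZM2G107711 had 98.3, 142 and 282 FPKM in ligule L1, 10.03, 16.3 and 0.978 in blade L1 and 22.8, 18.5 and 12.7 in sheath L1. Its ligule L1 replicates differed among themselves more than those of expa2, and blade L1 replicate 3 was far below the other blade L1 libraries. In all layers GRMZM2G107711 had 33.1, 81.7 and 53.9 FPKM in the ligule, 27.0, 30.6 and 26.3 in blade and 74.3, 29.8 and 40.8 in sheath. There the ligule lay above the blade and overlapped with the sheath. Without sheath replicate 3 of all layers it no longer stayed below the ceiling. GRMZM2G155543, the other gene above 100 FPKM, had the smallest ratio of means of the 20, with 121, 121 and 136 FPKM in ligule L1, 48.8, 40.4 and 53.2 in blade L1 and 57.9, 53.1 and 40.9 in sheath L1. In all layers its ligule libraries (114, 113 and 101 FPKM) all lay above those of the blade (83.7, 63.3 and 67.2) and the sheath (73.2, 97.4 and 68.8).

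GRMZM2G139029 was low in the L1 of blade and sheath but not in the whole pieces. It had 12.5, 8.07 and 17.0 FPKM in ligule L1, 0.0169, 0.238 and 0 in blade L1 and 2.20, 0 and 0 in sheath L1. In all layers it had 10.1, 19.6 and 23.4 FPKM in the ligule, 15.2, 17.5 and 18.05 in blade and 22.8, 19.1 and 20.4 in sheath, with the ligule spanning the range of the others. Its blade L1 libraries held 1, 4 and 0 counts and its sheath L1 libraries 25, 0 and 0, so that sheath L1 replicate 1 alone of these held more than a few. GRMZM2G029692 had 5.09, 14.2 and 13.8 FPKM in ligule L1, 0.185, 0 and 0.399 in blade L1 and 1.64, 0.992 and 0.842 in sheath L1. It was the only one of the 20 whose sheath L1 libraries all lay above its blade L1 libraries, and in all layers, too, the sheath (6.60, 7.84 and 5.58 FPKM) lay above the blade (2.70, 1.98 and 1.33). GRMZM2G461861 had 18.5, 10.7 and 13.6 FPKM in ligule L1, 4.40, 3.58 and 5.22 in blade L1 and 0, 0 and 0.230 in sheath L1, where 1 count was found in all, a ratio to the 216 counts of ligule L1 of 208 (exact 95% interval 37.0 to 8265, counting error only). In the sheath of all layers it had 12.3, 10.8 and 7.53 FPKM, at the level of the ligule there.

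Among the other unnamed genes, GRMZM2G309897 had 86.9, 61.7 and 93.0 FPKM in ligule L1, 24.9, 27.3 and 10.9 in blade L1 and 28.5, 22.02 and 26.7 in sheath L1. Across all layers it had 17.5, 24.1 and 29.9 FPKM in the ligule, 19.5, 18.9 and 16.1 in blade and 37.6, 26.3 and 31.9 in sheath, and there the sheath libraries lay above the blade libraries and overlapped with the ligule. GRMZM2G053511 had 90.8, 79.4 and 55.3 FPKM in ligule L1, 18.99, 24.5 and 18.1 in blade L1 and 3.48, 15.2 and 23.0 in sheath L1, with sheath L1 replicate 1 far below the other sheath L1 libraries. In all layers GRMZM2G053511 had 43.1, 43.5 and 52.1 FPKM in the ligule, 32.9, 35.3 and 48.2 in blade and 33.5, 58.2 and 48.2 in sheath, and the 3 regions overlapped. GRMZM2G064050 had 55.6, 33.6 and 43.3 FPKM in ligule L1, 12.9, 16.4 and 7.92 in blade L1 and 6.97, 12.1 and 11.0 in sheath L1. Its all-layers regions also overlapped, at 29.3, 20.0 and 24.1 FPKM in the ligule, 22.3, 12.2 and 16.1 in blade and 13.1, 23.4 and 14.3 in sheath.

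GRMZM5G857250 had 39.2, 32.6 and 30.8 FPKM in ligule L1, 4.35, 1.61 and 11.2 in blade L1 and 8.03, 5.65 and 9.47 in sheath L1, and its blade L1 libraries differed more among themselves than its ligule L1 libraries. Its levels in all layers were 13.8, 16.0 and 17.4 FPKM in the ligule, 8.02, 6.49 and 7.04 in blade and 16.4, 6.20 and 12.7 in sheath, where the ligule lay above the blade and overlapped with the sheath. GRMZM2G063657 had 8.44, 13.7 and 10.7 FPKM in ligule L1, 2.85, 1.67 and 3.95 in blade L1 and 2.72, 4.07 and 1.501 in sheath L1. Its all-layers levels were 3.11, 3.73 and 5.39 FPKM in the ligule, 2.20, 1.75 and 4.39 in blade and 3.02, 1.81 and 3.87 in sheath, and these groups overlapped. GRMZM2G151649 had 7.99, 9.94 and 7.21 FPKM in ligule L1, 1.35, 1.06 and 1.22 in blade L1 and 2.20, 1.298 and 2.21 in sheath L1. In all layers GRMZM2G151649 stood in the order ligule, sheath and blade without overlap, at 5.24, 5.76 and 4.54 FPKM in the ligule, 1.60, 1.59 and 2.02 in blade and 3.18, 3.88 and 3.34 in sheath.

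Under 20 counts were found in the lowest ligule L1 library of 3 genes, GRMZM2G461861, with 83, 16 and 117 counts, GRMZM2G404608 and GRMZM2G090460. GRMZM2G404608 had 6.28, 8.32 and 6.08 FPKM in ligule L1, with 36, 16 and 67 counts. It had 0.0613, 0.215 and 0.527 FPKM in blade L1 and 0, 0.652 and 1.61 in sheath L1. In all layers it had 1.65, 5.74 and 3.75 FPKM in the ligule. The blade there had 0.697, 0.974 and 2.01 FPKM and the sheath 3.93, 0.359 and 4.33, and the regions overlapped. It met the rule in 15 of the 18 cases with 1 P7 library left out. GRMZM2G090460 had 27.3, 8.27 and 31.4 FPKM in ligule L1, but these were only 21, 2 and 44 counts, and its blade L1 libraries held 6, 2 and 1 counts. It had 0 counts in all sheath L1 libraries, so a ratio to that group could not be measured. Set against an assumed 3 counts over the sheath L1, its 67 counts in ligule L1 gave a ratio per library total of 21.5. That value has no interval and is not a lower bound. In all layers GRMZM2G090460 had 4.08, 2.66 and 3.40 FPKM in the ligule, 6.44, 4.40 and 5.00 in blade and 2.04, 3.61 and 1.44 in sheath. There the blade libraries lay above those of the ligule.

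The layers were then set side by side within each region. All ligule L1 libraries lay above all ligule libraries of all layers for 14 of the 20 genes (14.1% of the 10498 genes at the floor), for 0 the ligule L1 lay wholly below (19.8%), and the other 6 overlapped. In the blade the L1 lay wholly below all layers for 12 genes (25% of the 10498) and wholly above for 1 gene, expa2 (10.1%). In the sheath the L1 lay wholly below for 13 (17.2%) and above for 0 (11.4%). These counts follow in part from the rule, which asks for a high ligule L1 and a low blade and sheath L1, and nothing was tested in them.

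Sorting the 20 genes by these overlaps, after their values were seen, gave 3 patterns of 5 genes each and 5 genes outside them. In expa2, EXPA5, GRMZM2G309897, GRMZM2G063657 and GRMZM5G857250 the ligule L1 lay above the whole ligule, and neither blade nor sheath L1 lay below the whole pieces (13.3% of the 10498 genes). In EREB161, ACI14, GRMZM2G139029, GRMZM2G147390 and GRMZM2G029692 the ligule L1 overlapped with the whole ligule, while both blade and sheath L1 lay below the whole pieces (4.57%). GRMZM2G053511, GRMZM2G090460, GRMZM2G107711, GRMZM2G151649 and GRMZM2G155543 made up the last pattern (0.124%). There the ligule L1 lay above the whole ligule, and both blade and sheath L1 lay below the whole pieces. Without sheath replicate 4 of all layers the first pattern held 3 genes, and with CPM (counts scaled to library size with TMM factors) in place of FPKM the last held 3, both alternatives being chosen after the values were seen. PIN1a showed the second pattern. RR6 had ligule L1 libraries below those of the whole ligule.

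**Figure D2:**
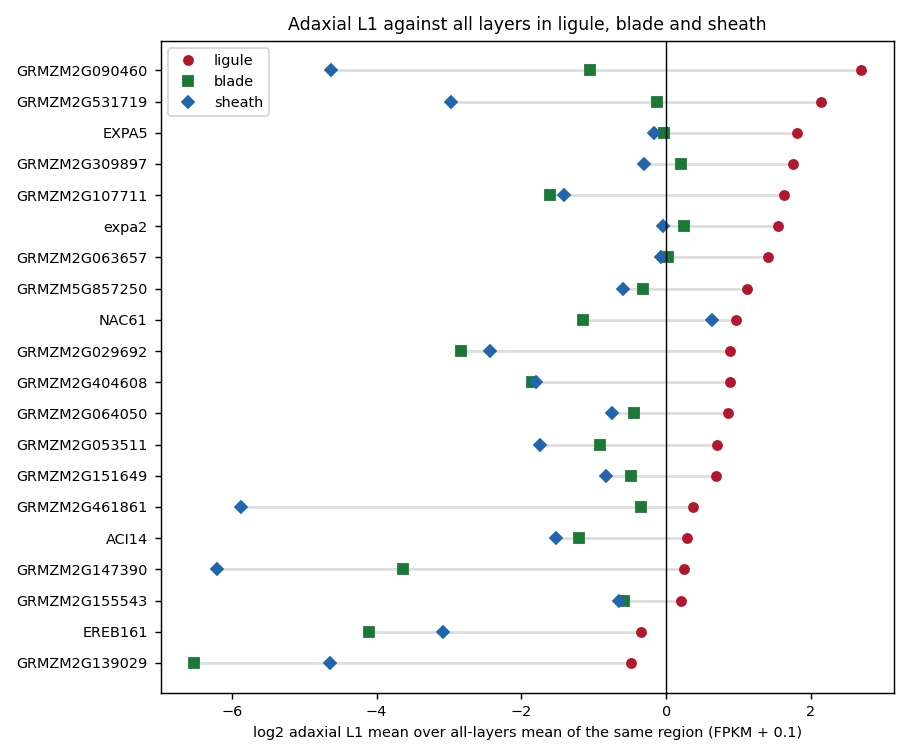
Log2 ratio of the adaxial L1 mean to the all-layers mean of the same region (FPKM + 0.1) for the 20 genes, ordered by the ligule ratio. Red circles are ligule, green squares blade and blue diamonds sheath; EXPA5 and expa2 have blade and sheath near 0 and the ligule to the right, while EREB161 and GRMZM2G139029 have the ligule near 0 and blade and sheath far to the left.

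Within the L1, the blade and sheath libraries overlapped for 15 of the 20 genes. The blade libraries lay wholly above the sheath libraries for 4 genes (expa2, GRMZM2G090460, GRMZM2G461861 and GRMZM2G531719; 6.55% of the 10498 genes) and wholly below for 1, GRMZM2G029692 (12.3%). The sheath L1 mean was the higher for 12 genes.

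In all layers the ratio of the ligule mean to the larger other mean, which the ceiling kept below 1.5, ran from 0.640 to 1.49 (median 1.21). The ligule mean was the highest for 13 of the 20 genes (50.3% of the 10498), the sheath mean for 6 and the blade mean for 1, GRMZM2G090460. With medians in place of means the ligule was highest for 10 genes and the sheath for 9. Every ligule library lay above every blade and sheath library for 2 genes, GRMZM2G151649 and GRMZM2G155543 (6.87%). The blade mean was the lowest of the 3 for 16 genes (41.1%). The rule used these libraries, so nothing is read from the counts.

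**Figure D3:**
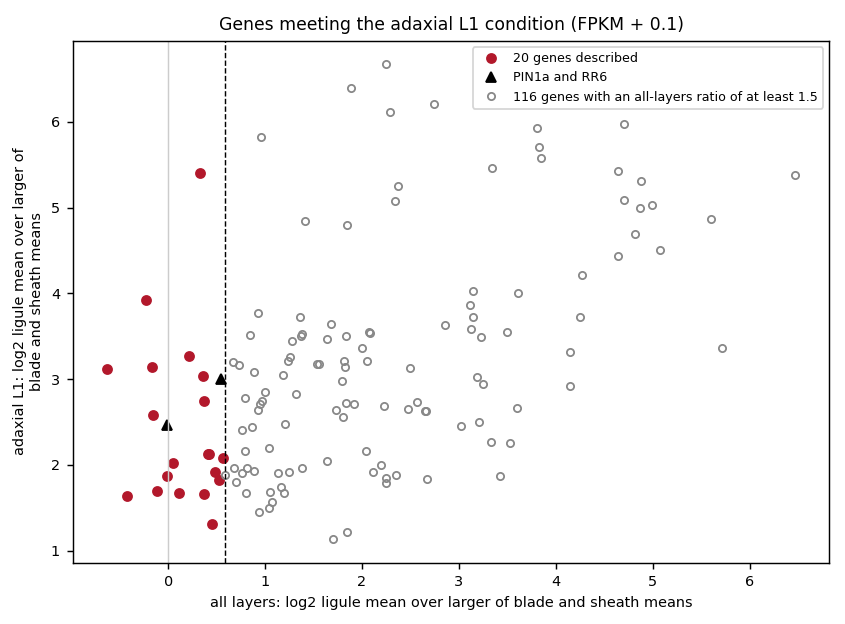
Log2 ratio of the ligule mean to the larger of the blade and sheath means (FPKM + 0.1) in all layers (x axis) and in the adaxial L1 (y axis) for the 138 genes with the epidermal difference. Red points are the 20 genes, triangles PIN1a and RR6 and open circles the 116 genes at or beyond the ceiling of 1.5 (dashed line); 13 of the 20 red points lie to the right of 0.

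Close to the thresholds, the choice turned on small margins. The members nearest the floor of 5 FPKM were GRMZM2G029692 at 5.09 and GRMZM2G147390 at 5.45, and the nearest genes below it were CKX4 (GRMZM5G817173) at 4.57 and GRMZM5G852304 at 4.36. Nearest the fold of 2 were GRMZM2G461861 at 2.04 and GRMZM2G064050 at 2.05 inside, and GRMZM2G101024 at 1.96 and GRMZM2G302160 at 1.94 outside. Nearest the ceiling of 1.5 were GRMZM2G151649 at 1.49 and GRMZM2G064050 at 1.44 inside, and GRMZM2G009901 at 1.51 and GRMZM2G097884 at 1.59 outside. Of the 20, 9 still met the rule whichever 1 of the 18 P7 libraries was left out, among them EXPA5, EREB161 and ACI14. Leaving out an L1 library can only ease the rule, so no gene could be lost that way. The count therefore bears on the all-layers ceiling and not on the epidermal difference. GRMZM2G090460, with 2 counts in ligule L1 replicate 2, was also among the 9.

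The P6 libraries, which had no part in the choice, asked whether the genes differ between lg1-R and wild-type P6 primordia. They held all cell layers, so the test cannot show whether the genes differ in the adaxial L1 alone. In the libraries labelled lg1-R the transcript level of lg1 itself was 1.59, 1.42 and 2.33 FPKM, against 0.465, 1.77 and 0.998 in wild type, so the groups overlapped and lg1 was not called (log2 fold change 0.89, SE 0.43, edgeR adjusted p = 0.781). Since the labels do not describe the lesion, the transcript level does not check the genotype. Differences were tested with edgeR's quasi-likelihood test over 21249 genes, adjusted after Benjamini and Hochberg and called below 0.05. Of 19 tested genes of the 20, 0 were called lower (0% of all genes tested) and 0 higher (0.00471%, 1 gene). At an unadjusted p below 0.05 there were 3 (6.59% of all genes tested). DESeq2 called 0 of the same 19, against 0.311% of all genes lower and 0.386% higher. On log2(FPKM + 1), limma called 0 of the 18 it tested, against 0.0258% of all genes lower and 0.0206% higher. With no filter on low counts edgeR called 1 of 20 lower and 1 higher, given below, against 0.658% of all genes lower and 0.733% higher.

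GRMZM2G063657 had the smallest p among the genes that were higher in lg1-R. It had 7.72, 6.09 and 4.19 FPKM in lg1-R, against 3.47, 4.19 and 3.34 in wild type (log2 fold change 0.83, SE 0.27, edgeR adjusted p = 0.509). The highest wild-type library and the lowest lg1-R library were almost level. With no filter on low counts it was called (edgeR adjusted p = 0.0405). The expansin gene expa2 had 341, 363 and 268 FPKM in lg1-R, against 219.6, 258 and 221 in wild type (log2 fold change 0.60, SE 0.22, edgeR adjusted p = 0.627). In GRMZM2G309897 the groups overlapped, with 38.6, 23.9 and 36.5 FPKM in lg1-R and 27.4, 21.5 and 27.1 in wild type (log2 fold change 0.47, SE 0.22, edgeR adjusted p = 0.761). GRMZM2G063657 and expa2 were the only 2 of the 20 whose lg1-R libraries all lay above the wild-type libraries, against 2.97% of all genes tested, and 0 lay wholly below, against 6.65%.

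GRMZM2G151649 had the smallest p among the genes that were lower in lg1-R. It had 0.936, 1.53 and 2.19 FPKM in lg1-R, against 7.27, 3.50 and 1.70 in wild type, and wild-type replicate 3 lay inside the lg1-R range (log2 fold change -1.36, SE 0.49, edgeR adjusted p = 0.588). With no filter on low counts it was called (edgeR adjusted p = 0.00428). GRMZM2G139029 had 7.55, 7.15 and 13.2 FPKM in lg1-R, against 18.8, 11.7 and 10.9 in wild type (log2 fold change -0.51, SE 0.27, edgeR adjusted p = 0.827). GRMZM2G053511 had 30.4, 26.7 and 28.2 FPKM in lg1-R, against 40.4, 38.8 and 29.4 in wild type (log2 fold change -0.29, SE 0.20, edgeR adjusted p = 0.869). In both the lg1-R libraries tended to the low side and the groups overlapped.

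The other named genes did not pass the test. The log2 fold change of lg1-R over wild type was 0.31 (SE 0.23) for NAC61, 0.15 (SE 0.19) for EREB161, -0.17 (SE 0.32) for EXPA5 and -0.10 (SE 0.24) for ACI14, with edgeR adjusted p between 0.878 and 0.966. NAC61 stood at 8.44, 13.3 and 12.7 FPKM in lg1-R and 8.47, 8.58 and 12.6 in wild type, and EREB161 at 9.53, 8.71 and 11.1 FPKM in lg1-R and 9.30, 10.1 and 9.00 in wild type. EXPA5 stood at 5.88, 12.8 and 5.87 FPKM in lg1-R and 9.93, 10.6 and 9.39 in wild type, with lg1-R replicate 2 above all and the other lg1-R libraries below all wild-type libraries. GRMZM2G090460 had the largest positive log2 fold change, 0.95 (SE 0.56, edgeR adjusted p = 0.848), with 21.97, 17.2 and 10.1 FPKM in lg1-R and 5.31, 16.1 and 9.93 in wild type, and the groups overlapped. GRMZM2G147390 had 0.73 (SE 0.48, edgeR adjusted p = 0.859), with 5.18, 1.35 and 8.51 FPKM in lg1-R and 2.90, 2.42 and 4.23 in wild type. Its lg1-R libraries lay on both sides of the wild-type range. The other 7 tested genes had log2 fold changes from -0.02 (GRMZM2G531719) to 0.39 (GRMZM2G029692). GRMZM2G404608 was too low to be tested, with 4, 1 and 8 counts in lg1-R and 34, 2 and 14 in wild type.

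**Figure D4:**
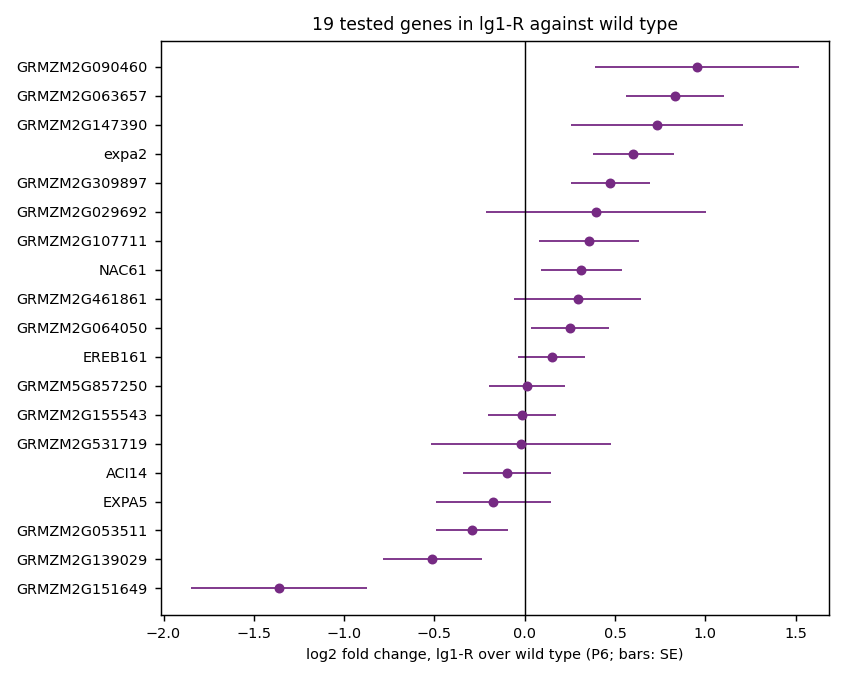
Log2 fold change of lg1-R over wild type in P6 primordia for the 19 tested genes, with SE from edgeR's quasi-likelihood fit as bars. The values run from -1.36 (GRMZM2G151649) to 0.95 (GRMZM2G090460), and 12 of 19 are positive.

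Of all 21249 genes tested, 10349 had positive and 10900 negative log2 fold changes, with a median of -0.01. Over the 19 genes, 12 log2 fold changes were positive and 7 negative, with a median of 0.25. This median depended on the fit. It was 0.26 with DESeq2, 0.32 without wild-type replicate 1 and 0.25 without wild-type replicate 3. With limma it was 0.069 at a pseudocount of 1 (-0.099 over all genes), 0.072 at 0.1 (-0.11) and 0.0067 with no filter (-0.034). These limma fits tested 18, 18 and 20 of the genes, and 10 values were positive in each. The median was 0.14 without lg1-R replicate 1, lg1-R replicate 3 or wild-type replicate 2, and 0.18 without lg1-R replicate 2. Of the 116 genes with the same epidermal difference and an all-layers ratio of at least 1.5, 99 were tested. Of these, 27 were positive and 72 negative, and the median was -0.27. Of the 99, 31 had an unadjusted p below 0.05 (6.59% of all genes tested). The main edgeR fit called 0, and DESeq2 called 13 lower and 0 higher, beside 66 lower and 82 higher of all 21249 genes. With no filter on low counts edgeR called 20 of 115 lower and 1 higher, beside 228 lower and 254 higher of all 34650. Without wild-type replicate 3 it called 10 of 98 lower, beside 48 of all 21112. On log2(FPKM + 1), limma called 2 of 84 lower, beside 5 of all 19393. Of this set, 0 were called with limma at a pseudocount of 0.1 or with no filter, with RLE in place of TMM factors, or with the replicate block. The same held with all 24 libraries, without the chromosome of lg1, and with any other P6 library left out. The difference between these genes and the 19 was not tested. Of the 6 tested expansins, 2 were positive and 4 negative, with a median of -0.15. An unadjusted p below 0.05 was found for 2 of them, expa2 included, against 6.59% of all genes tested, and edgeR and DESeq2 each called 0. The 2 with positive values were expa2 and expB8, which had a log2 fold change of 0.48 (SE 0.18, edgeR adjusted p = 0.637).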

How the data were processed

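RNA of 24 laser-microdissected maize leaf libraries was compared in 8 groups of 3, taken from the labels. Per the submitters' processing notes, the authors used TopHat2 2.0.10 and Cuffdiff 2.1.1; genome build and annotation: not given in the sources used here. The authors deposited a table of FPKM values per gene identifier and a table of estimated counts (expected counts, of which 0.274 to 0.601% per library were not whole), which were rounded for the count tests. Columns were matched to libraries by the labels' titles.

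The rule, the ratios and the overlaps between groups used the deposited FPKM values, with a pseudocount of 0.1 in the plots of log2 ratios. All P7 libraries served to choose the genes, so P7 values carry no test. lg1-R and wild-type P6 libraries were compared with edgeR 4.0.16 (robust quasi-likelihood fit, TMM factors, filterByExpr at min.count 10 and min.total.count 15) under R 4.3.3, on these 6 libraries alone, with Benjamini-Hochberg adjustment over all genes tested and a threshold of 0.05. DESeq2 1.42.0 and limma 3.58.1 were among the alternatives.

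The 20 genes and all gene lists were chosen with earlier results of these data known. Gene names came from a RefSeq table of Zm-B73-REFERENCE-NAM-5.0; there, 18259 of the 109715 identifiers matched 1 locus, and gene lists were made from the letters that begin a name. By rule, genes were described if they had a name, were among the 10 with the largest epidermal ratio or the 10 with the highest ligule L1 level, had the smallest p in P6, or lay next to a threshold; the remaining members and a few genes of their families were added after their values were seen. Whether the counting used strand or shared reads between near-identical genes is not stated, so values of family members such as the expansins are uncertain to that extent. Labels tell replicates apart as pools of plants. RNA was amplified before sequencing and counts are not molecules, so intervals cover counting error only.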

Additional observations from a re-analysis of the deposited data

How the results depend on the processing

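The number of genes that met the rule, 20, followed its thresholds. It was 72 with a fold of 1.5 and 8 with a fold of 3, 46 with a floor of 1 FPKM and 11 with 10, and 10 with a ceiling of 1.2 and 41 with 2. Leaving out 1 P7 library gave 18 to 45 genes, the most without ligule L1 replicate 1 (45), ligule L1 replicate 2 (39), ligule L1 replicate 3 (33) and sheath L1 replicate 1 (31), where fewer libraries had to meet the rule. With CPM in place of FPKM 18 genes met it, 13 of them among the 20. An alternative chosen after seeing the data, at least 10 counts in each ligule L1 library, kept 19 of the 20. The genes highest in the blade of all layers numbered 2, against 1, with CPM, without blade replicate 5 and without sheath replicate 4. In P6, the number of all genes called, 1 with edgeR, was 148 with DESeq2, 482 where low counts were not filtered (1 of the 20 lower and 1 higher), 9 and 6 with limma at pseudocounts of 1 and 0.1, 0 with limma and no filter, 4 with the replicate block, 0 with all 24 libraries in the fit, and 0 to 58 without 1 library (43 without lg1-R replicate 3 and 58 without wild-type replicate 3); the cause was not tested. The median of all genes was -0.01 with edgeR and -0.11 with limma at a pseudocount of 0.1.

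Deviations of same-numbered lg1-R and wild-type libraries from their group means had correlations of 0.050, -0.0015 and -0.188 over 19138 genes. Those of differently numbered libraries ran from -0.182 to 0.241. With 3 libraries per group this cannot decide whether the numbers pair the libraries. The replicate block called 0 of the 19 tested genes, with a median log2 fold change of 0.15. Of 282 values of single genes, 262 kept their direction and their side of the threshold, 2 passed it with no filter on low counts (log2 fold change 0.82 for GRMZM2G063657 and -1.36 for GRMZM2G151649), and 18 in 6 genes changed sign, among them GRMZM2G029692 (0.39 with edgeR) and GRMZM2G461861 (0.29). The log2 fold change of GRMZM2G029692 was -0.027 with limma and no filter, -0.058 with the replicate block and -0.99 to 0.81 without 1 library. GRMZM2G531719 had 0.020 with DESeq2, 0.031 with the replicate block and -0.48 to 0.69 without 1 library. GRMZM5G857250 had -0.066 with limma at a pseudocount of 1, with or without the filter, -0.075 at 0.1 and -0.070 to 0.16 without 1 library. Without 1 library GRMZM2G155543 had -0.098 to 0.11, EXPA5 -0.69 to 0.084 and GRMZM2G461861 -0.080 to 0.49. Ligule L1 replicate 2 had the lowest depth, 3818649 counts, and a gene such as GRMZM2G090460, with 2 counts there, rests on few reads.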
